A study of Mus musculus with 8 samples.

Results

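The nuclear genes of oxidative phosphorylation were followed in mouse liver with and without hepatocyte Smpd3. They were chosen by a rule on gene symbols, with earlier results of these data known. The rule took the Nduf genes of complex I, the Sdh genes of complex II and the Uqcr genes and Cyc1 of complex III. It also took Cycs for cytochrome c, the Cox4 to Cox8 genes of complex IV and the Atp5 genes of complex V. Symbols containing -ps were left out. The rule found 87 of the 55416 gene identifiers, with 86 symbols because Atp5o has 2 identifiers: 36 for complex I, 4 for complex II, 9 for complex III, 1 for cytochrome c, 19 for complex IV and 18 for complex V. RNA came from whole liver of 8 mice on the HFMCD diet for 9 weeks, in a study of steatohepatitis. The control group was 4 floxed mice without the Alb-cre transgene (FLOX1 to FLOX4, here controls 1 to 4). The knockout group was 4 mice carrying it (HKO1 to HKO4, here knockouts 1 to 4), in which the albumin promoter drives Cre in hepatocytes, so that other liver cells keep the gene. Both groups had the diet, and none of the 8 libraries is from another diet. Strain, age and sex are not given in the labels. Values are TPM, the RNA-seq unit in which each gene's share of its library is scaled for transcript length. The depth behind them is unknown, and the 8 columns sum to between 994563 and 995449 TPM.

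Oxidative phosphorylation takes electrons from NADH (complex I) and succinate (complex II) through ubiquinone, complex III, cytochrome c and complex IV to oxygen. Complexes I, III and IV pump protons out of the mitochondrial matrix, and complex V, the ATP synthase, uses their return to make ATP. Most subunits are encoded in the nucleus and imported, and a small set, among them the proton-channel and heme-carrying cores, is encoded in mitochondrial DNA. In hepatocytes this machinery burns the electrons from fatty acid oxidation and the citric acid cycle and supplies ATP for gluconeogenesis and urea synthesis. Its nuclear genes are known targets of NRF1, GABPA (an ETS factor, also called NRF2), YY1 and ERR alpha, working with the coactivators of the PGC-1 family. Sphingomyelin phosphodiesterase 3, the product of Smpd3, cleaves sphingomyelin to ceramide.

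A minority of the subunit gene promoters hold the NRF1 motif, as shared letters in members of different complexes, which is why 5 windows are printed. They come from RefSeq on build GRCm38.p6, 5′ to 3′ on the strand of the gene, with the motif GCATGCGC, or its reverse complement GCGCATGC, in capitals. For each of complexes I, II, IV and V and for cytochrome c, the window is from the member of highest level with a match before its start; the matches of complex III members did not lie wholly before the start.
Ndufa6: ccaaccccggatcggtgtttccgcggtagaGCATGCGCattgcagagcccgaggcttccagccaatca
Sdhb: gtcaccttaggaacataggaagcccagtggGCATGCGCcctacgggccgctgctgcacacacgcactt
Cycs: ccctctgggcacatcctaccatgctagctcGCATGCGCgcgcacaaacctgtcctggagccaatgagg
Cox6a1: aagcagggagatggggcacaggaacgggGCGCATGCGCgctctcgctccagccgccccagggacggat
Atp5l: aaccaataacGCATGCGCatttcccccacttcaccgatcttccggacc
Ndufa6 encodes an accessory subunit of complex I, and its window lies at chr15:82354337-82354404 on the minus strand. Sdhb encodes the iron-sulfur subunit of succinate dehydrogenase, and its window lies at chr4:140961187-140961254 on the plus strand. Cycs encodes the soluble carrier between complexes III and IV, and its window lies at chr6:50566592-50566659 on the minus strand. Cox6a1 encodes the liver form of a complex IV subunit, and its window lies at chr5:115349081-115349148 on the minus strand, where the match and its reverse complement overlap. Atp5l encodes the g subunit of the ATP synthase, and its window lies at chr9:44920945-44920992 on the minus strand. The match ended 75, 46, 52, 152 and 232 bases before the annotated start of these 5 genes, in the order printed.

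Of the 87 members, 68 had a RefSeq promoter entry, running from 250 bases before to 50 bases after the start, and 65 of these were tested for expression. The motifs were chosen with their matches in view and searched on both strands. A gene was counted where any of its entries held the letters. GCATGCGC stood in 11 of the 65 (16.9%), against 5.71% of 9435 other tested genes and 3.05% of all 27025 promoters in the table. The 11 were Atp5g2, Atp5k, Atp5l, Cox6a1, Cycs, Ndufa11, Ndufa6, Ndufa8, Sdhb, Uqcr11 and Uqcrc1, from every complex. The YY1 motif AAGATGGCG stood in 7 (10.8%, against 3.65% of other tested genes), of which 5 were complex I genes (Ndufa9, Ndufc1, Ndufs4, Ndufs6 and Ndufs7) and the other two Atp5j and Atp5j2. The ETS motif CCGGAAGT stood in 5 (7.69%, against 9.25%), namely Atp5h, Cox8a, Ndufs3, Uqcr11 and Uqcrh, and Uqcr11 alone had both this and the NRF1 motif. The cAMP response element TGACGTCA stood in 5 (7.69%, against 3.4%), the ERR motif TCAAGGTCA in Atp5g3 and Sdhd (3.08%, against 0.339%), the THAP11 motif ACAATTCCC in Atp5d and Uqcr10 (3.08%, against 1.05%) and the letters TATAAA in 5 (7.69%, against 9.52%). NRF1, ETS or YY1 letters stood in 22 of the 65. These are descriptions of letters in a window, not of binding.

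Smpd3 (ENSMUSG00000031906) was measured first, as a check of the labels: 8.69, 10.7, 12.5 and 6.38 TPM in controls 1 to 4 and 1.17, 3.03, 1.27 and 2.06 TPM in knockouts 1 to 4. Every knockout library was below every control library. The knockout mean was 19.6% of the control mean, and the log2(TPM + 1) difference, knockout minus control, was -1.89 (SE 0.24, 95% interval -2.42 to -1.35, adjusted p = 0.0300) in limma with Benjamini-Hochberg adjustment over all 12710 tested genes. A 2-sided exact permutation test over the 70 assignments of the libraries gave p = 0.0286, the smallest value it can give here. That value follows from the lack of overlap alone. The call was lost when control 1, control 2, knockout 1, knockout 3 or knockout 4 was left out (adjusted p = 0.0874, 0.0558, 0.0727, 0.0680 and 0.0505), while the difference stayed between -1.93 and -1.77 in those fits. Hepatocyte markers were abundant, with Alb at 47418 TPM on average in the controls, and their summed level over 10 genes was 73591 to 86805 TPM in control livers against 66368 to 73764 TPM in knockout livers. Of those 10 markers, 9 had a lower and 1 a higher knockout mean, and none passed the test. Such counts, here and below, go by the mean of log2(TPM + 1), which can differ in direction from the mean of TPM. Of the tested markers of other cell types none passed either, with 1 higher and 6 lower knockout means for sinusoidal endothelial cells, 2 and 4 for Kupffer cells, 5 and 2 for stellate cells, 4 and 0 for cholangiocytes, 4 and 0 for T and NK cells, 2 and 1 for B and plasma cells and 0 and 2 for skeletal muscle. The groups did not overlap for 2 of 10 hepatocyte, 1 of 6 Kupffer cell, 1 of 4 T and NK cell and 1 of 3 B and plasma cell markers tested. The count was 0 in the other marker lists. Over all tested genes this share was 4.74%. Marco of Kupffer cells (log2 difference -0.84, adjusted p = 0.0609 in limma) and the hepatocyte genes Apoa1 (-0.41, adjusted p = 0.204) and Serpina1a (-0.13, adjusted p = 0.633) were lower. Gzma (0.88, adjusted p = 0.401) and Ighm (0.48, adjusted p = 0.323) were higher. Timd4, under the filter, was lower in every knockout. Adipocyte markers summed to at most 0.83 TPM, with Plin1 and Lep listed at 0. In whole liver, fewer cells of a type and less RNA per cell cannot be told apart.

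No nuclear oxidative phosphorylation subunit passed the test for a difference between the genotypes. Of the 87 members 81 passed the filter of at least 1 TPM in at least 4 libraries and were tested, and 0 passed an adjusted p of 0.05 in limma, against 13 of all 12710 tested genes (0.102%). At an unadjusted p under 0.05 the count of members was also 0, against 1019 of all tested genes (8.02%), and the smallest adjusted p of a member was 0.660. Knockout means of log2(TPM + 1) were higher for 66 of the 81 and lower for 15, with a median log2 difference of 0.04 and a range of -0.08 to 0.26. Without control 2 the split was 54 higher and 27 lower, and without knockout 1 it was 56 and 25. The median of all tested genes was 0.05, and 64.6% of them had a higher knockout mean.

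The intervals around these small differences were narrow. For 69 of the 81 members (85.2%) the 95% interval of the difference lay wholly within a 1.25-fold change either way, against 15.7% of all tested genes, and for 78 (96.3%) it lay within 1.5-fold, against 71.0%. Subunit transcripts are abundant, and level moves with precision: among genes with a mean of at least 50 TPM the interval lay within 1.25-fold for 67 of 73 members (91.8%) and for 1005 of 1968 tested genes (51.1%). The median SD between libraries of a group was 0.10 on the log2 scale for the members, 0.14 for tested genes of at least 50 TPM and 0.21 for all tested genes. Both the sign and the precision depended on the scaling. When libraries were rescaled by the median of ratios over genes, 36 members were higher and 45 lower, and the interval lay within 1.25-fold for 34 of the 81 (42%), against 28% of all tested genes. Under quantile normalization 38 were higher and 43 lower, with 68 intervals within 1.25-fold (84%), against 31.3% of all tested genes. The share of all tested genes moved with other settings too. With a pseudocount of 5 it was 55.1% beside 88.9% of members, and with no filter 45.2% beside 83.3%. With a replicate block it was 6.53% beside 66.7%. By complex, the median log2 difference under median-of-ratios scaling was 0.0031 for complex I, -0.02 for complex II, -0.05 for complex III, -0.04 for complex IV and -0.02 for complex V, so that the small positive medians reported for complexes II to V changed sign. The number of members called was 0 in every setting run.

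**Figure D1:**
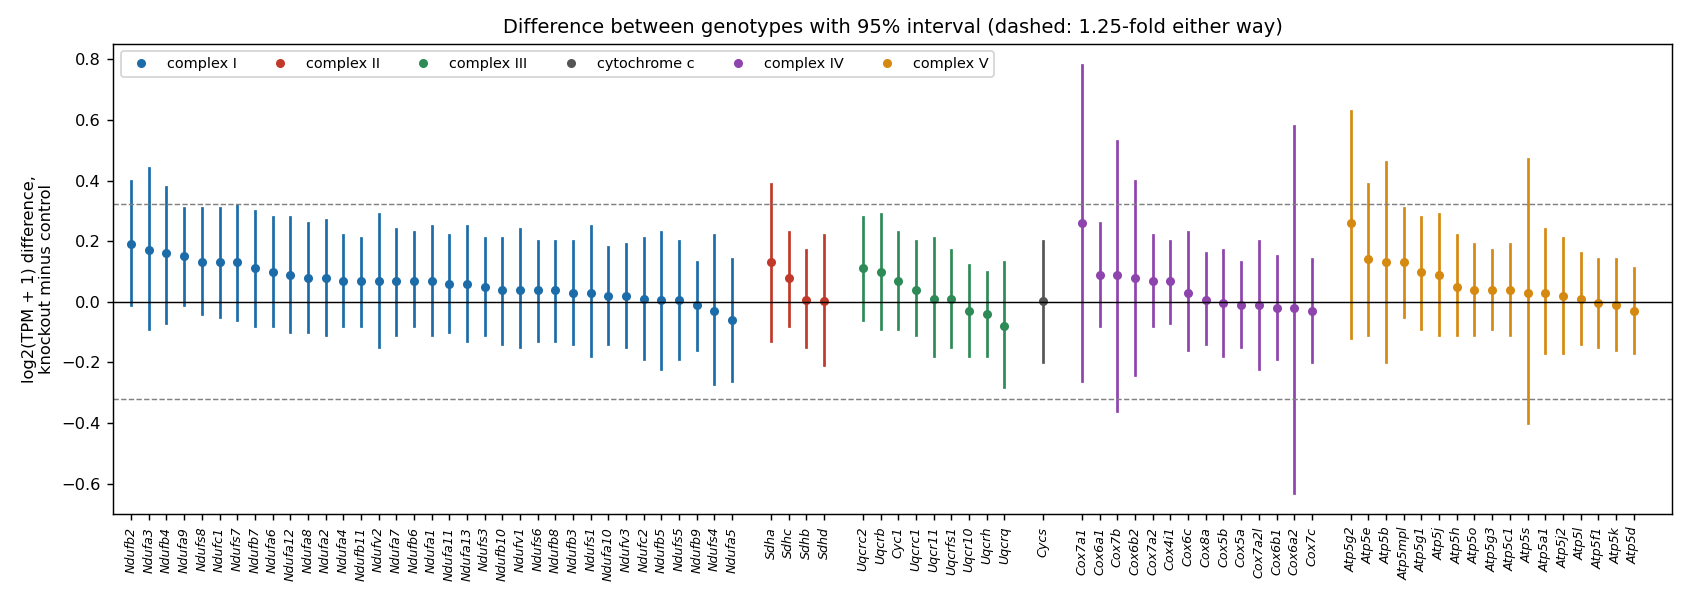
Difference in log2(TPM + 1), knockout minus control, for the tested members, grouped by complex and sorted by size within it. Points are limma estimates, bars are 95% intervals, the dashed lines mark a 1.25-fold change either way, and every bar drawn crosses 0.

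Levels differed far more between genes than between genotypes. Among tested members the mean over 8 libraries ran from 1.1 TPM for Cox6a2 to 1386 TPM for Cox6a1, with a median of 231.5 TPM. Median levels, in TPM per gene, were 168.6 for complex I, 193.0 for complex II, 372.7 for complex III, 383.9 for complex IV and 396.2 for complex V. Cytochrome c, at 32.1 TPM, lay below 74 of the other tested members. Together the 87 members made up 2.56 ± 0.0953% of library TPM in the controls and 2.64 ± 0.0968% in the knockouts (SD, n = 4 each). The 13 mitochondrially encoded subunits made up 7.58 ± 0.912% and 7.44 ± 0.58%, a share that includes genes whose levels are uncertain, as set out below.

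**Figure D2:**
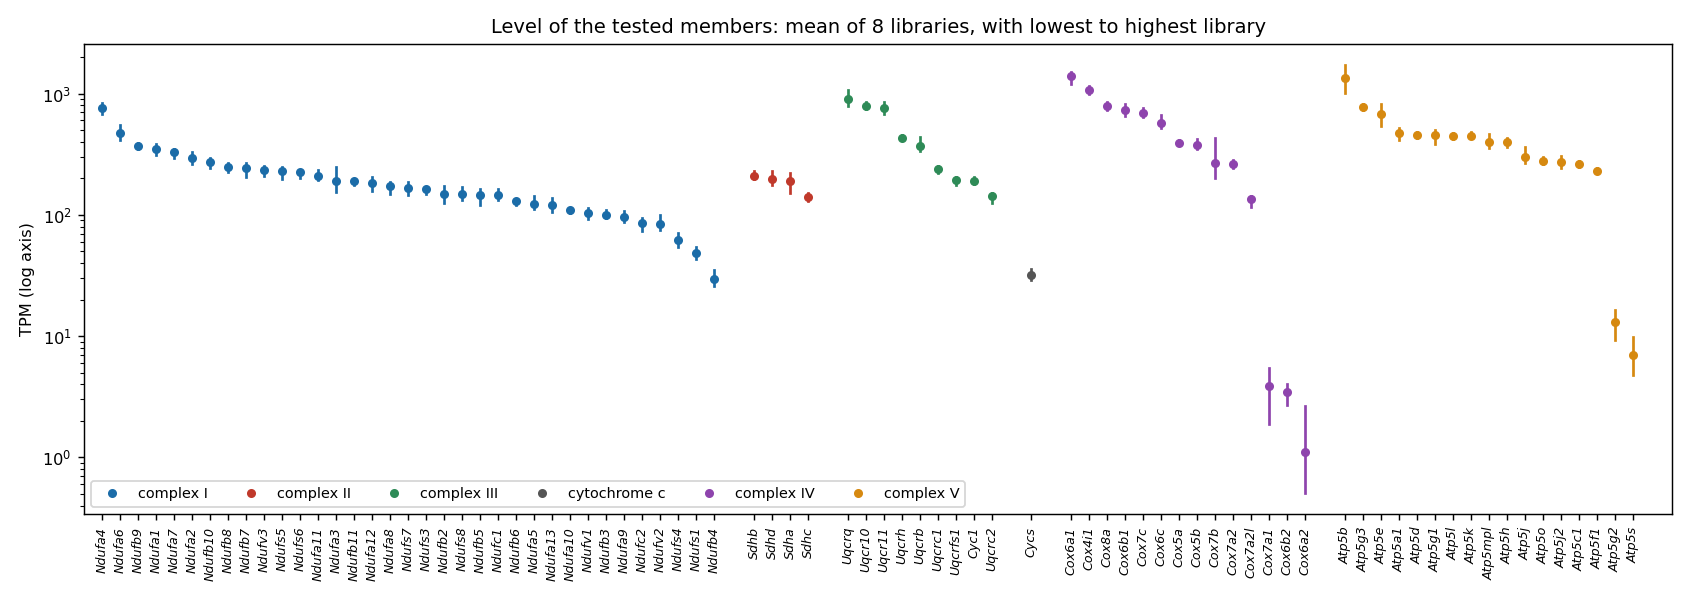
Mean TPM over the 8 libraries (points, log axis) for the tested members by complex, with a line from the lowest to the highest library. The spread among genes of one complex is wider than the line of nearly every gene, and the low values in complexes IV and V belong to isoform genes such as Cox6a2, Cox7a1 and Atp5g2 and to Atp5s.

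Complex I, which oxidizes NADH, had 33 of 36 subunits with a higher knockout mean and 3 with a lower one, none past the test. The median log2 difference was 0.07, the range was -0.06 to 0.19, and 33 of the 36 intervals lay within 1.25-fold. Summed over the 36 genes the level was 6931, 6467, 7215 and 7302 TPM in controls 1 to 4 and 7790, 7203, 7234 and 6991 TPM in knockouts 1 to 4. The groups overlapped, with control 2 lowest and knockout 1 highest, and the means were 6979 ± 376.3 TPM in control and 7304 ± 341.4 TPM in knockout livers (SD, n = 4 each). Ndufa4, long counted with complex I and now placed with complex IV, was the highest of the group by symbol, with 740.9 ± 39.3 TPM in control and 778.8 ± 37.8 TPM in knockout livers (SD, n = 4 each). Ndufb4, an accessory subunit of the membrane arm, was the lowest, with 27.8 ± 1.52 TPM in control and 31.2 ± 3.39 TPM in knockout livers (SD, n = 4 each).

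Ndufs8, a core subunit that binds iron-sulfur clusters at the junction with the membrane arm, was among the 4 complex I genes of smallest p: 136, 132, 144 and 151 TPM in controls 1 to 4 and 169, 148, 150.5 and 151 TPM in knockouts 1 to 4. Knockout 1 stood above the rest and the other knockouts lay at or near control 4. The log2 difference was 0.13 (SE 0.08, 95% interval -0.04 to 0.31, adjusted p = 0.742).

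Among the 29 accessory subunits, 26 had a higher knockout mean and 3 a lower one. Ndufb2 (ENSMUSG00000002416), an accessory subunit of the membrane arm, had the smallest p of all members: 132, 124, 149 and 149 TPM in controls 1 to 4 and 174, 150.4, 167 and 144 TPM in knockouts 1 to 4. Knockout 4 lay below controls 3 and 4, so the groups overlapped, and the log2 difference was 0.19 (SE 0.09, 95% interval -0.01 to 0.40, adjusted p = 0.660). Ndufa9 (ENSMUSG00000000399), an accessory subunit near the ubiquinone site, was at 92.4, 92.4, 94.3 and 87.7 TPM in controls 1 to 4 and 98.7, 105, 107 and 97.3 TPM in knockouts 1 to 4. Every knockout library was above every control library, by 2.96 TPM at the nearest, with means of 91.7 ± 2.82 TPM in control and 101.8 ± 4.48 TPM in knockout livers (SD, n = 4 each). The log2 difference was 0.15 (SE 0.07, 95% interval -0.01 to 0.31, adjusted p = 0.661). Ndufb11, a membrane-arm subunit named here after its values were seen, was the other member without overlap: 186.03, 177.51, 184.63 and 191.05 TPM in controls 1 to 4 and 198.43, 192.91, 191.23 and 191.23 TPM in knockouts 1 to 4. Knockouts 3 and 4 exceeded control 4 by only 0.18 TPM, and the log2 difference was 0.07 (SE 0.06, 95% interval -0.08 to 0.21, adjusted p = 0.890), which was -0.00055 under quantile normalization. These were 2 of the 81 tested members without overlap (2.47%), against 603 of all tested genes (4.74%), and both were higher in the knockout, as were 418 of all tested genes (3.29%). Ndufc1, a small membrane-arm subunit, was at 132, 145, 143 and 132 TPM in controls 1 to 4 and 164, 147, 159 and 135 TPM in knockouts 1 to 4, with overlap and a log2 difference of 0.13 (adjusted p = 0.782).

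**Figure D3:**
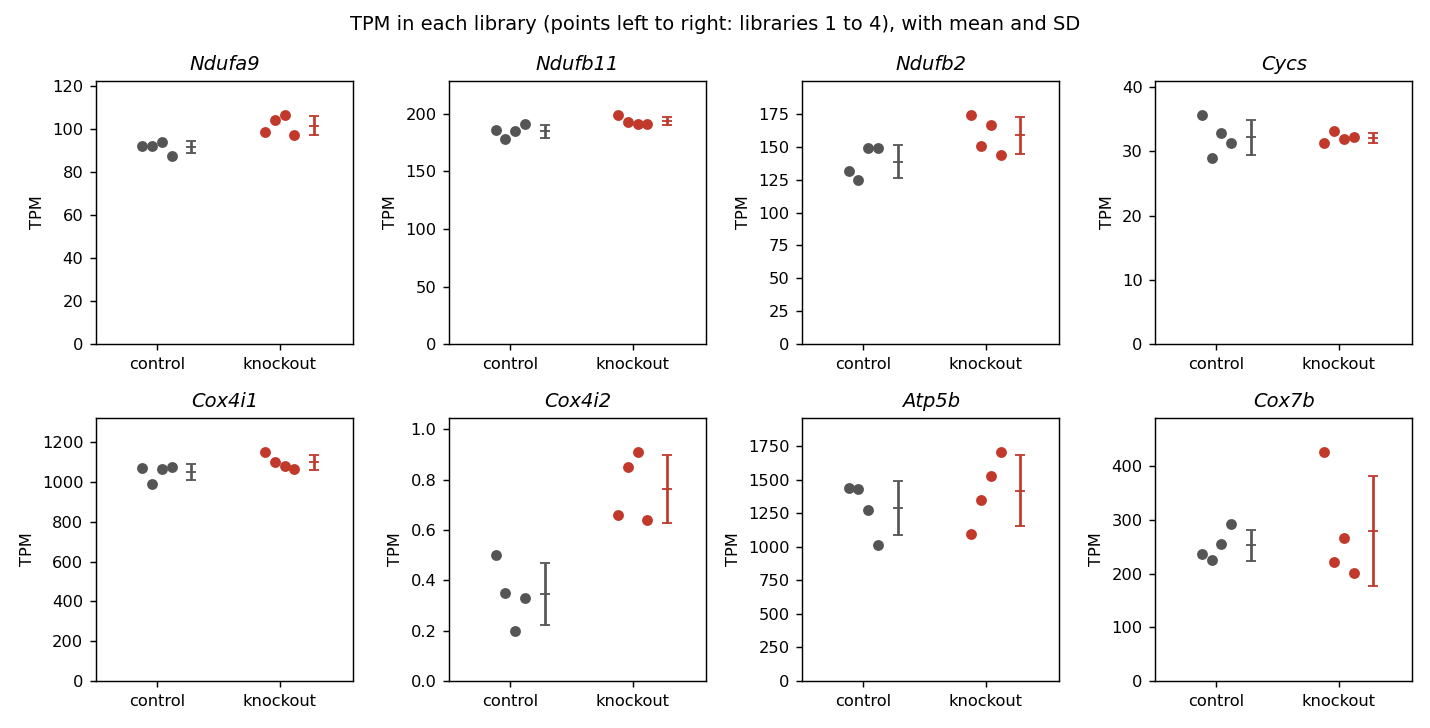
TPM in each library for 8 members, with controls on the left and knockouts on the right of each panel, points in library order 1 to 4, and the mean and SD of each group beside them. Ndufa9, Ndufb11 and the low isoform Cox4i2 show no overlap, and Cox7b and Atp5b show the spread between libraries.

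Complex II, succinate dehydrogenase, links the citric acid cycle to the chain and has only nuclear subunits. All 4 genes were tested and 0 passed, with means between 139.4 and 209.8 TPM. Sdha, the flavoprotein that oxidizes succinate, was at 202, 197, 175 and 152 TPM in controls 1 to 4 and 165, 199.8, 208 and 223 TPM in knockouts 1 to 4. Control 4 and knockout 1 were the lowest libraries and the groups overlapped, with a log2 difference of 0.13 (SE 0.12, 95% interval -0.13 to 0.39, adjusted p = 0.882). It was 0.05 without control 4, 0.22 without knockout 1 and 0.07 without knockout 4. Sdhb, the iron-sulfur subunit, was at 208, 203, 217 and 209 TPM in controls 1 to 4 and 229, 199, 216 and 198 TPM in knockouts 1 to 4, with overlap. Its log2 difference was 0.0072 (adjusted p = 0.995) with an interval of -0.15 to 0.17. Sdhc, a membrane anchor, was at 138, 131, 136 and 137 TPM in controls 1 to 4 and 152, 144, 142 and 134 TPM in knockouts 1 to 4. Only knockout 4 lay within the control range, and the log2 difference was 0.08 (adjusted p = 0.888). Sdhd, the other anchor, was at 228, 195, 176 and 184 TPM in controls 1 to 4 and 175, 192, 205 and 212 TPM in knockouts 1 to 4, with control 1 highest and the groups interleaved. Its log2 difference was 0.0041 (adjusted p = 0.998) with an interval of -0.21 to 0.22. The 4 genes summed to 722.1 ± 40.1 TPM in control and 748.4 ± 24.6 TPM in knockout livers (SD, n = 4 each). The higher means of Sdhb and Sdhd turned lower under median-of-ratios scaling (-0.06 for each).

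Complex III, which passes electrons from ubiquinol to cytochrome c, had 6 higher and 3 lower knockout means among its 9 genes, a median log2 difference of 0.01 and all 9 intervals within 1.25-fold. Its summed level was 3965, 3789, 4072 and 4290 TPM in controls 1 to 4 and 4270, 3863, 4044 and 3871 TPM in knockouts 1 to 4. The groups overlapped over most of their range, with means of 4029 ± 209.7 TPM in control and 4012 ± 191.2 TPM in knockout livers (SD, n = 4 each). Uqcrc2, a core structural protein and the least abundant of the 9, was at 149, 139.6, 134 and 124 TPM in controls 1 to 4 and 145, 144, 152 and 148 TPM in knockouts 1 to 4. All knockouts lay within the upper part of the control range or above it, and the log2 difference was 0.11 (SE 0.08, 95% interval -0.06 to 0.28, adjusted p = 0.807). Uqcrb, the ubiquinone-binding protein, was at 349, 334, 383 and 372 TPM in controls 1 to 4 and 439, 385, 368 and 352 TPM in knockouts 1 to 4. Knockout 1 was highest, the groups overlapped, and the log2 difference was 0.10 (adjusted p = 0.871). Cyc1, the cytochrome c1 heme protein, was at 198, 179, 181 and 183 TPM in controls 1 to 4 and 182, 192, 201 and 203 TPM in knockouts 1 to 4, with overlap and a log2 difference of 0.07 (adjusted p = 0.899). Uqcrq, a small membrane subunit and the most abundant of the 9, was at 845, 856, 911 and 1076 TPM in controls 1 to 4 and 957, 845, 902 and 785 TPM in knockouts 1 to 4. Control 4 was highest and knockout 4 lowest, and the log2 difference was -0.08 (SE 0.09, 95% interval -0.28 to 0.13, adjusted p = 0.922), which was 0.00013 without control 4. Cycs, encoding cytochrome c itself, was at 35.6, 28.97, 32.8 and 31.3 TPM in controls 1 to 4 and 31.3, 33.1, 31.9 and 32.2 TPM in knockouts 1 to 4. Control 1 was highest and control 2 lowest, so all knockouts lay inside the control range, and the interval of the log2 difference was -0.20 to 0.20.

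Complex IV, cytochrome c oxidase, reduces oxygen, and its nuclear subunits surround a mitochondrially encoded core. Of 19 genes 14 were tested, 8 with a higher and 6 with a lower knockout mean, and 0 passed. The median log2 difference was 0.02, and 10 of the 14 intervals lay within 1.25-fold. The sum over all 19 was 6619 ± 350.5 TPM in control and 6782 ± 414.8 TPM in knockout livers (SD, n = 4 each). Cox4i1, the main form of the regulatory subunit 4, was at 1069.6, 989.6, 1064 and 1076 TPM in controls 1 to 4 and 1151, 1099.7, 1080.0 and 1063 TPM in knockouts 1 to 4. Control 2 was lowest and knockout 1 highest, with knockout 4 inside the control range and a log2 difference of 0.07 (adjusted p = 0.888). Cox6a1, the most abundant member of all, was at 1290.0, 1208, 1386 and 1491 TPM in controls 1 to 4 and 1517, 1357, 1469 and 1369.7 TPM in knockouts 1 to 4. The groups overlapped, and the log2 difference was 0.09 (adjusted p = 0.873). Cox7a2, the liver form of subunit 7a, was at 255, 241, 262 and 271 TPM in controls 1 to 4 and 274, 282, 269.7 and 256 TPM in knockouts 1 to 4, with overlap and a log2 difference of 0.07 (adjusted p = 0.888).

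Several complex IV subunits have a second gene used in muscle, heart, lung or testis, and in these livers the tissue-restricted forms held little of the TPM. Cox6a2, the muscle form of subunit 6a, was 0.0892 ± 0.078% of its pair in the controls and 0.0733 ± 0.0295% in the knockouts (SD, n = 4 each). Cox6b2, the testis form of subunit 6b, was 0.449 ± 0.0698% and 0.488 ± 0.065%, and Cox7a1, the muscle form of subunit 7a, was 0.881 ± 0.283% and 1.06 ± 0.281% of the sum of Cox7a1, Cox7a2 and Cox7a2l. Cox7a2l, which encodes a factor joining complexes III and IV in supercomplexes, was 34 ± 3.16% and 32.6 ± 2.26% of that sum. The level of Cox7a1 was 1.87, 3.59, 4.09 and 4.36 TPM in controls 1 to 4 and 4.47, 4.61, 5.48 and 2.71 TPM in knockouts 1 to 4, low in control 1 and knockout 4, with a log2 difference of 0.26 (SE 0.23, 95% interval -0.26 to 0.78, adjusted p = 0.882). Without control 1 the difference was 0.06, without knockout 3 it was 0.15 and without knockout 4 it was 0.42. Cox6a2 was at 2.66, 0.65, 0.78 and 0.61 TPM in controls 1 to 4 and 1.04, 1.41, 0.51 and 1.18 TPM in knockouts 1 to 4, and control 1 stood apart. The log2 difference was -0.02 (adjusted p = 0.995) and 0.26 without control 1. Skeletal muscle markers were also highest in control 1, with a sum over 7 genes of 46.5 TPM against 5.13 to 8.51 TPM in the other libraries. Cox7a1, also a muscle form, was instead lowest in control 1. The part of muscle RNA in the Cox6a2 value was not tested. Cox6b1 (adjusted p = 0.986), Cox6c (0.975) and Cox8a (0.995), the common forms of their subunits, had log2 differences of -0.02, 0.03 and 0.0072 in limma.

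The 5 complex IV genes that did not reach the filter were Cox4i2, Cox6c2, Cox7b2, Cox8b and Cox8c. Cox6c2 and Cox7b2 were listed at 0 in every library, and so was the second Atp5o identifier of complex V. Cox8b, a heart and muscle form, was at most 0.77 TPM and Cox8c, a testis form, at most 0.49 TPM. Cox4i2, the form of subunit 4 best known from lung and from oxygen-sensing cells, was at 0.50, 0.35, 0.20 and 0.33 TPM in controls 1 to 4 and 0.66, 0.85, 0.91 and 0.64 TPM in knockouts 1 to 4. All knockouts were above all controls at these very low levels. Its share of the Cox4i1 and Cox4i2 sum was 0.0329 ± 0.0116% in the controls and 0.0697 ± 0.0131% in the knockouts (SD, n = 4 each). In a fit with no filter its log2 difference was 0.39 (SE 0.10, unadjusted p = 0.0033, adjusted p = 0.469 in limma), so it was not called. With a pseudocount of 1 this difference understates the ratio of the TPM values.

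Cox7b, a small subunit of the complex, was the member above 50 TPM that varied most between libraries, by 2.12 times from lowest to highest: 237, 226, 256 and 292 TPM in controls 1 to 4 and 427, 223, 266 and 202 TPM in knockouts 1 to 4. Knockout 1 stood far above the rest and knockouts 2 and 4 were the lowest, and the log2 difference was 0.09 (SE 0.20, 95% interval -0.36 to 0.53, adjusted p = 0.973). It turned to -0.14 without knockout 1 and was 0.22 without knockout 4.

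Complex V, the ATP synthase, had 14 of 17 tested genes with a higher and 3 with a lower knockout mean, a median log2 difference of 0.04 and 13 intervals within 1.25-fold. Its summed level was 7320, 6875, 7224 and 6830 TPM in controls 1 to 4 and 7433, 7182, 7494 and 7499 TPM in knockouts 1 to 4. Controls 1 and 3 lay within the knockout range and controls 2 and 4 below it, with means of 7062 ± 246.0 TPM in control and 7402 ± 149.6 TPM in knockout livers (SD, n = 4 each). Atp5b, the catalytic beta subunit of the F1 head and the most abundant gene of the complex, was at 1440.1, 1435, 1272 and 1011 TPM in controls 1 to 4 and 1093, 1346, 1532 and 1707 TPM in knockouts 1 to 4. It varied 1.69-fold between libraries, lowest in control 4 and knockout 1 and highest in knockout 4, with a log2 difference of 0.13 (SE 0.15, 95% interval -0.20 to 0.46, adjusted p = 0.910). It was 0.02 without control 4, 0.25 without knockout 1 and 0.04 without knockout 4. Atp5e, the epsilon subunit of the central stalk, was at 593, 537, 728 and 705 TPM in controls 1 to 4 and 818, 684, 656 and 661 TPM in knockouts 1 to 4, lowest in control 2 and highest in knockout 1, with a log2 difference of 0.14 (adjusted p = 0.852), which was 0.06 without control 2 and 0.07 without knockout 1. Atp5mpl, encoding a small membrane protein of the synthase, had the smallest p of the complex: 362, 354, 417 and 380.1 TPM in controls 1 to 4 and 461, 394, 401 and 400.5 TPM in knockouts 1 to 4. Control 3 lay above 3 of the 4 knockouts, and the log2 difference was 0.13 (SE 0.08, 95% interval -0.05 to 0.31, adjusted p = 0.774). The 4 tested genes of the peripheral stalk, which holds the head still, had log2 differences between -0.0034 and 0.09, and all 4 intervals lay within 1.25-fold. Atp5s, encoding coupling factor B, was the least abundant, with 6.8 ± 0.962 TPM in control and 7.15 ± 2.24 TPM in knockout livers (SD, n = 4 each).

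The c ring, the rotor turned by protons, is built from 1 mature protein encoded by 3 genes, Atp5g1, Atp5g2 and Atp5g3. Atp5g3 gave 62.8 ± 1.64% of their summed TPM in the controls and 61.8 ± 1.21% in the knockouts (SD, n = 4 each), Atp5g1 gave 36.2 ± 1.55% and 37.1 ± 1.39%, and Atp5g2 gave 0.974 ± 0.195% and 1.13 ± 0.226%. Atp5g3 was at 749, 734, 766 and 779 TPM in controls 1 to 4 and 815, 763, 774 and 764 TPM in knockouts 1 to 4, a 1.11-fold range over all 8 libraries, with a log2 difference of 0.04 (SE 0.06, 95% interval -0.09 to 0.17, adjusted p = 0.937). Atp5g1 was at 465, 386, 452 and 447 TPM in controls 1 to 4 and 499.9, 467, 483 and 421 TPM in knockouts 1 to 4, with overlap and a log2 difference of 0.10 (adjusted p = 0.871). Atp5g2, at a far lower level, was at 14.6, 9.93, 9.26 and 13.3 TPM in controls 1 to 4 and 12.99, 15.8, 11.4 and 16.5 TPM in knockouts 1 to 4, with controls and knockouts interleaved and a log2 difference of 0.26 (SE 0.17, 95% interval -0.12 to 0.63, adjusted p = 0.797), or 0.16 without control 3.

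The libraries differed among themselves in ways that crossed the genotypes. The median deviation of the members from each gene's mean over 8 libraries, in log2(TPM + 1), was -0.02, -0.11, 0.0063 and 0.02 in controls 1 to 4 and 0.10, 0.0069, 0.02 and -0.03 in knockouts 1 to 4. Control 2 was thus low and knockout 1 high, in complexes I, IV and V most of all (-0.15 and 0.13 in complex I, -0.11 and 0.12 in complex IV, -0.07 and 0.09 in complex V). Complex II was not high in knockout 1, at -0.02. Over all tested genes the same medians were 0.07, 0.05, -0.01 and -0.21 in the controls and -0.11, 0.10, 0.03 and 0.08 in the knockouts, so control 4 and knockout 1 were low there while the subunits were not. These same libraries had the lowest median-of-ratios scaling factors, 0.836 for control 4 and 0.914 for knockout 1, against 0.994 to 1.088 for the others. In control 4 the sums of sinusoidal endothelial (71.3 TPM), Kupffer cell (278.4 TPM) and stellate cell markers (114.7 TPM) were the lowest of the 8 libraries and that of hepatocyte markers (86805 TPM) the highest, and their part in these deviations was not tested. Without both libraries, a choice made after seeing the data, 59 members were higher and 22 lower, the median log2 difference was 0.03, 67 intervals lay within 1.25-fold and 0 members were called.

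**Figure D4:**
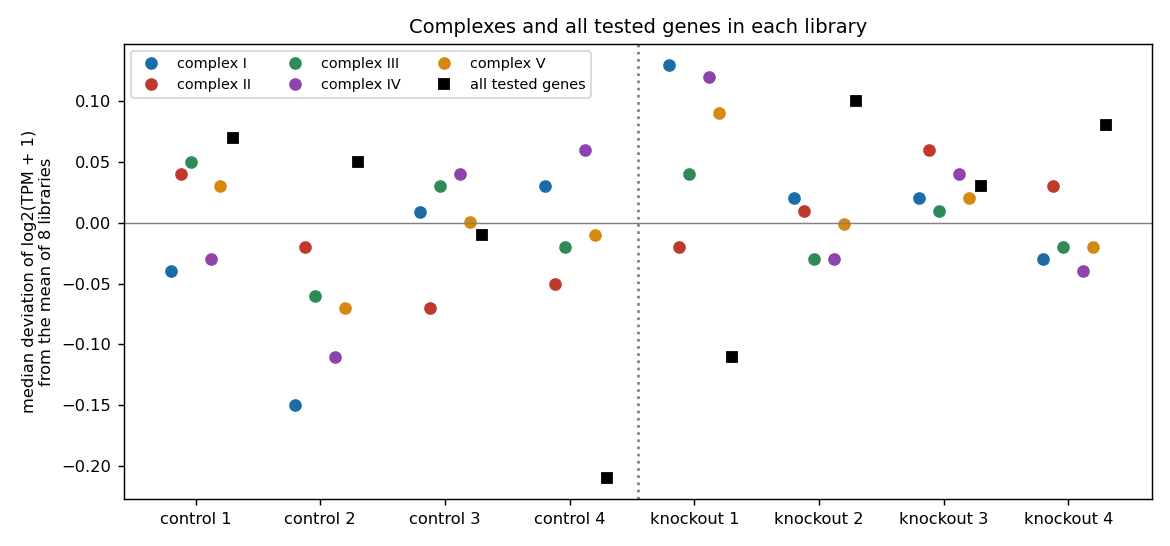
Median deviation of log2(TPM + 1) from each gene's mean over 8 libraries, for the tested members of each complex (circles) and for all 12710 tested genes (squares), in controls 1 to 4 and knockouts 1 to 4. In control 4 and knockout 1 the squares lie at -0.21 and -0.11, below all 5 complexes.

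The deviation of a subunit moved with the length of its transcript. Subunit transcripts are short, with a median of 745 bases against 2583 bases over the 11619 tested genes with a length. In the 28 members under 600 bases the median deviation was -0.07, -0.14, 0.04 and 0.06 in the controls and 0.13, -0.0093, 0.02 and -0.04 in the knockouts, whereas in the 28 members of 1000 bases and over it was 0.04, -0.04, -0.02 and -0.05 and 0.009, 0.02, 0.07 and 0.02. Short members were thus the lower ones in controls 1 and 2 and the higher ones in control 4 and knockout 1. Other tested genes showed the same order in these 4 libraries: in knockout 1 the median was 0.11 for 190 genes under 600 bases and -0.14 for 10521 genes of 1000 bases and over, in control 4 it was -0.02 and -0.23, in control 1 it was -0.04 and 0.09, and in control 2 it was -0.07 and 0.06. Atp5b and Sdha, with transcripts of 1916 and 2900 bases, were lowest in control 4 and next lowest in knockout 1, while Uqcrq, of 504 bases, was highest in those libraries. Between genotypes the length classes lay close together: the median log2 difference was 0.06 for members under 600 bases, 0.04 for those of 600 to under 1000 bases and 0.04 for longer ones. The part of transcript length in any single difference was not tested.

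**Figure D5:**
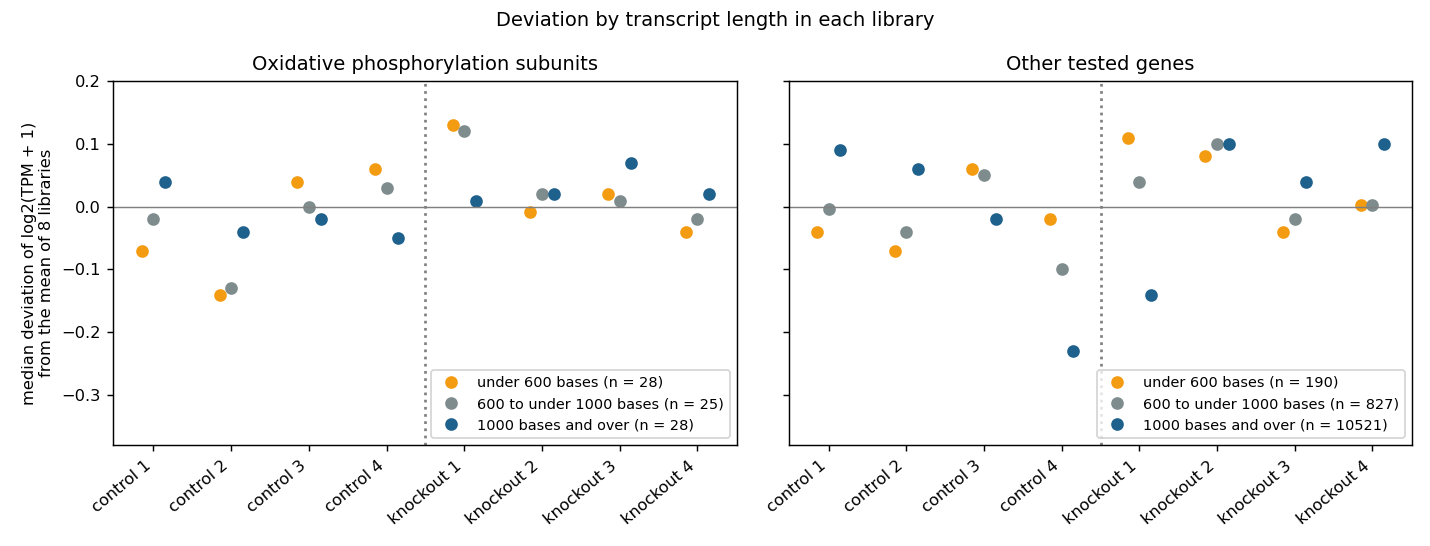
Median deviation of log2(TPM + 1) from each gene's mean over 8 libraries by transcript length, for the tested subunits (left) and other tested genes (right), with n in each legend. In control 4 and knockout 1 genes under 600 bases lie above genes of 1000 bases and over in both panels, and in controls 1 and 2 they lie below.

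The mitochondrially encoded partners were examined beside the nuclear subunits. All 13 were tested and 0 passed, 3 with a higher and 10 with a lower knockout mean of log2(TPM + 1), and the median log2 difference was -0.07. Counted as lower was mt-Co3 (-0.18), although its mean TPM was 199.3 in control and 212.0 in knockout livers. Their summed level was highest in control 4, at 88043 TPM, and was between 66371 and 79394 TPM in the other libraries. mt-Nd6, a complex I subunit and the only protein-coding gene on the light strand, was at 1533, 1490.2, 1542 and 1938 TPM in controls 1 to 4 and 1168, 1387, 1209 and 1034 TPM in knockouts 1 to 4. Every knockout was below every control, and the log2 difference was -0.44 (SE 0.11, 95% interval -0.68 to -0.20, adjusted p = 0.217), with an unadjusted p of 0.0022. The strand setting of the quantification is not given, so reads of mt-Nd6 and of RNA from the opposite strand cannot be told apart. The level of mt-Co2 was 284.2 ± 108.1 TPM in control and 456.4 ± 173.3 TPM in knockout livers (SD, n = 4 each), with a log2 difference of 0.64 (adjusted p = 0.697). mt-Atp8, at 28268 TPM, and mt-Atp6, at 515.0 TPM, are read from overlapping frames of 1 transcript, and mt-Co2, mt-Co3 and mt-Atp6 can share reads with near-identical nuclear copies, so these levels are uncertain.

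Assembly factors, which build the complexes without staying in them, were counted from lists by complex. For complex I 11 of 17 had a higher and 6 a lower knockout mean, for complex II 2 and 2 of 4, for complex III 4 and 2 of 6, for complex IV 16 and 6 of 22 tested and for complex V 2 and 2 of 4, and 0 passed in any list. Median log2 differences were 0.11 for complex I, -0.0037 for complex II, 0.0063 for complex III, 0.07 for complex IV and -0.0021 for complex V. Coa6, which helps copper reach complex IV, was at 52.8, 53.4, 56.95 and 58.00 TPM in controls 1 to 4 and 52.5, 45.1, 44.5 and 46.5 TPM in knockouts 1 to 4. The knockouts were all below the controls, and the log2 difference was -0.23 (SE 0.09, 95% interval -0.42 to -0.04, adjusted p = 0.514). Cmc2, another complex IV factor, was at 11.6, 11.6, 11.7 and 10.1 TPM in controls 1 to 4 and 14.2, 12.7, 12.5 and 14.1 TPM in knockouts 1 to 4, without overlap, and its log2 difference was 0.23 (adjusted p = 0.633). Ndufaf4, a complex I factor, was at 10.4, 9.09, 9.36 and 12.4 TPM in controls 1 to 4 and 8.40, 9.00, 7.43 and 8.68 TPM in knockouts 1 to 4, without overlap, and its log2 difference was -0.26 (adjusted p = 0.661). The groups did not overlap for 1 of 17 complex I factors, 2 of 22 complex IV factors and 0 in the other lists. Over all tested genes this share was 4.74%. Coa7 (-0.32, adjusted p = 0.667 in limma) and Acad9 (0.23, adjusted p = 0.704), next by p for complexes IV and I, overlapped. The 1 listed complex IV factor that did not pass the filter, Pet117, was listed at 0. Coa1 and Coa8 were not analysed here. Ndufab1, the acyl carrier protein that is also a complex I subunit but falls outside the symbol rule, was at 170.6 ± 8.99 TPM in control and 183.2 ± 11.9 TPM in knockout livers (SD, n = 4 each).

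None of the tested regulators of these genes passed the test. Of 19 listed, 16 were tested, with a median level of 8.86 TPM against 9.43 TPM over all tested genes, 9 with a higher and 7 with a lower knockout mean, with a median log2 difference of 0.08, while Ppargc1b, Esrrg and Perm1 stayed under the filter. Ppargc1a, the coactivator known for driving mitochondrial biogenesis, was at 1.95, 4.09, 1.93 and 2.06 TPM in controls 1 to 4 and 1.47, 1.76, 2.35 and 1.93 TPM in knockouts 1 to 4, with overlap and a log2 difference of -0.25 (SE 0.20, 95% interval -0.70 to 0.20, adjusted p = 0.856). Nrf1 had a log2 difference of -0.19 (adjusted p = 0.863), Gabpa one of 0.16 (adjusted p = 0.903) and Tfam, which packages and transcribes mitochondrial DNA, one of -0.09 (adjusted p = 0.959). Pprc1, a coactivator related to Ppargc1a, was at 7.66, 5.65, 6.27 and 7.99 TPM in controls 1 to 4 and 4.79, 6.32, 4.87 and 5.08 TPM in knockouts 1 to 4. Its log2 difference was -0.33 (SE 0.15, 95% interval -0.65 to -0.0048, adjusted p = 0.617), with an unadjusted p of 0.0473. The 14 citric acid cycle genes, which supply NADH and succinate, had 10 higher and 4 lower knockout means, a median log2 difference of 0.07 and 0 calls. The 7 tested inner membrane and outer membrane carriers, which exchange ATP, ADP, phosphate and other ions, had 5 higher and 2 lower, a median of 0.02 and 0 calls.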

How the data were processed

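RNA-seq libraries of 8 mouse livers, 4 floxed controls and 4 Alb-cre knockouts grouped by their titles, were prepared by a stranded total RNA protocol, per the labels. The 1 table the authors deposited holds TPM (a library share scaled for transcript length) for 55416 identifiers. RSEM 1.3.3 and GRCh38.p13, a human build, are listed in the submitters' processing notes, whereas the identifiers are mouse. Of the aligner, annotation and strand setting, nothing is given in the sources used here. Read depth is unknown, so no count test was run. Nothing says how the mice were housed or batched, so p-values measure only the spread between these 8 samples.

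Symbols came from a table of mouse identifiers, which matched 52083. Values were tested as log2(TPM + 1) by limma (version 3.58.1, R 4.3.3), with the functions lmFit and eBayes, a mean trend and no covariate, for the 12710 genes that reached 1 TPM in 4 or more of the 8 libraries, with Benjamini-Hochberg adjustment over all of them, after a check on simulated data. Sums, shares and deviations are descriptions. Transcript lengths are the GENCODE M21 basic set's. Members named were Smpd3, per complex the 4 of smallest unadjusted p and the highest and lowest level, and all isoform genes. A complex I member is counted but not reported here by itself, nor drawn. Members and lists were chosen with earlier results of these data known. The alternatives tried included pseudocounts of 0.1 and 5, dropping the filter, requiring a mean of 5 TPM, 4 other scalings or weightings, a replicate block and each library left out.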

Additional observations from a re-analysis of the deposited data

Results flagged for a closer look

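In each group of 4 libraries, the lowest or highest value was set against the rest by Dixon's criterion (the gap to the nearest value as a share of the range), over 80 groups. It marked 5 values, and chance marks about 1 in 20 groups. Both values for knockout 1 were high. Ndufs8, a core subunit of complex I, was 169.3 TPM there against 148.2 to 151.1 TPM in the other knockouts. Atp5mpl, a small protein of the ATP synthase, was 460.6 TPM there against 393.8 to 400.6 TPM. Cox4i1, the main form of complex IV subunit 4, was 989.6 TPM in control 2 against 1064 to 1076 TPM in the other controls. Cox7a2l, the supercomplex factor, was 115.2 TPM in control 4 against 139.3 to 142.8 TPM. Cox6a2, the muscle form of subunit 6a, was 2.66 TPM in control 1 against 0.61 to 0.78 TPM, in the library where muscle markers were also highest. Cox7a1, the muscle form of subunit 7a and not among the marked values, was lowest in that library, at 1.87 TPM.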

How the results depend on the processing

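No alternative called any of the members. The number of all genes called, 13, was 8 and 6 with pseudocounts of 0.1 and 5, 0 with no filter, 20 after rescaling without mitochondrially encoded and the 20 most abundant genes, 20 with library weights, 0 to 16 when 1 library was left out and 0 without both control 4 and knockout 1. With median-of-ratios scaling the members with an interval within 1.25-fold numbered 34 and those with a higher knockout mean 36, and with quantile normalization the latter numbered 38; the cause was not tested. With those 2 scalings the median log2 difference was -0.02 and -0.02 in complex II and -0.02 and -0.0079 in complex V. It was -0.05 and -0.03 in complex III and -0.04 and -0.0027 in complex IV. With the rescaling it was -0.01 in complex III and -0.004 in complex IV. In complex IV it was also -0.001 with library weights and -0.0009 without knockout 1. The labels number both groups 1 to 4. Deviations of same-numbered libraries from their group means, over tested genes, correlated at -0.15, 0.03, -0.15 and -0.20, so the numbers were not taken as pairs. With the replicate block 0 genes were called, Smpd3 was at -1.89 (adjusted p = 0.0818), and 54 members had an interval within 1.25-fold. Smpd3 also lost its call with no filter (-1.89, adjusted p = 0.167) and without both control 4 and knockout 1 (-1.93, adjusted p = 0.0603), and lay between -2.06 and -1.76 with 1 library left out. Among named members, differences changed sign as follows, none of them past the test. With median-of-ratios scaling Sdhb, Sdhd, Cycs and Cox8a were at -0.06, Cox6c and Atp5s at -0.03 and Atp5g3 at -0.02. With the rescaling Sdhb, Sdhd, Cycs and Cox8a were at -0.02. With quantile normalization Sdhb and Cycs were at -0.06, Sdhd at -0.07, Atp5s at -0.02, Cox8a at -0.007, Cyc1 at -0.0038 and Ndufb11 at -0.00055. With library weights Sdhb was at -0.02, Cycs at -0.0079, Cox7b at -0.0036 and Cox6c at -0.0032. With a pseudocount of 0.1 Cox6a2 was at 0.01. Without both libraries Sdhb was at -0.03, Cox6c at -0.02 and Cox7b at -0.07. With 1 library left out the ranges were Sdhb from -0.03 to 0.04, Sdhd from -0.04 to 0.08, Cycs from -0.04 to 0.05, Uqcrq from -0.12 to 0.00013, Cox6a2 from -0.14 to 0.26, Cox6b1 from -0.08 to 0.03, Cox6c from -0.04 to 0.09, Cox7a2l from -0.08 to 0.04, Cox7b from -0.14 to 0.22, Cox8a from -0.03 to 0.04 and Atp5s from -0.12 to 0.18. Unknown depth, 4 libraries a group and the shift of all genes between scalings limit what differences of this size can show.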
